A study of Drosophila melanogaster with 2 samples.

Results

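The 10 genes described here, Camta, Polr2F, Dolk, Tsen15, shps, CG31915, spg, Rnb, CG8675 and CG8861, are those whose start sites lay nearest to the strongest promoter peaks of the Drosophila protein CG6654. They were chosen from 13968 protein-coding genes by the signal of the peaks themselves. Among the 25 reproducible peaks of highest signal, these 10 had their summit, the point of highest enrichment, within 500 bp of a coding start. Their high signals are therefore a description and carry no test.

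The data come from chromatin immunoprecipitation and sequencing (ChIP-seq), which recovers and sequences the DNA a protein sits on. Embryos of both sexes, aged 0 to 12 h, were taken as 2 biological replicates, 1 and 3, of a single group, from a transgenic line that makes CG6654 with eGFP fused to its C terminus, precipitated through the GFP tag. Both replicates carry the same transgene, no untagged or treated group was analysed here, and the whole embryo averages over cell types and stages. The authors deposited a region list for each replicate, a list for the pooled reads, and a set of peaks reproducible by the irreproducible discovery rate (IDR), and each region has a signal value whose scale is not stated.

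A transcription start site is the base at which RNA polymerase begins to copy a gene, and the promoter around it collects the polymerase and its general factors. Sequence-specific proteins such as C2H2 zinc finger proteins can bind at promoters, where tandem fingers read a row of neighbouring bases and so can recognise long sites. In the compact fly genome many promoters serve a pair of genes that run in opposite directions, and genes often overlap or sit inside one another. A strong ChIP-seq peak at a start site therefore need not belong to the nearest gene, and binding alone does not say whether a gene is switched on or off.

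The sequence that led the other peaks was found with the 10 genes' regions left out. The 8-base word ACAGTTTG, counted on both strands (CAAACTGT is the same word on the other strand), was in 161 of 2950 summit windows (50 bp either side of a summit), which is 5.46%, against 41 of 5900 flank windows, which is 0.695%. A matrix of 19 columns grown from it scores each site in bits, up to 30.5, and 1% of flank windows reach its threshold of 11.3. The best-scoring site at each summit is shown for 7 of the genes, because these sites show how far strong peaks resemble the sequence of the other peaks and where they depart from it. Capitals mark bases that equal the consensus, the most frequent base of each matrix column, and each site is read 5′ to 3′ on the strand given, on dm6.
CG8861, chr3R:9328984-9329002, plus strand: TACAGTTTGAtgaaCACca
shps, chr3R:24279548-24279566, minus strand: gACAGTTTGAcAtgCACaG
CG31915, chr2L:5528053-5528071, plus strand: cACAGTTTGAGAGgCgCcG
Polr2F, chr3R:5371737-5371755, plus strand: gAaAGTTTGAGAagCACTG
spg, chr3R:28845093-28845111, minus strand: TACAGTTTtgGAGgCACat
Rnb, chr3R:29799063-29799081, minus strand: ggtgGTTTGAcAGCCACTG
CG8675, chrX:17249524-17249542, minus strand: agaccTTTGAGAGCCACTG

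The matrix passed its threshold in the summit windows of 7 of the 10 genes, against 5.57% of the 1202 other start-site peaks. The scores were 22.7 bits at CG31915, 21.7 at Polr2F, 21.2 at shps, 19.8 at Tsen15, 18.9 at spg, 18.3 at Rnb and 17.2 at Camta. The remaining 3 summits scored 9.95 at Dolk, 9.66 at CG8675 and 9.15 at CG8861. The sites at CG8861 and CG8675 fell short in different places: the CG8861 site keeps the first 10 bases of the consensus and loses most of the rest, while the CG8675 site lacks the first 5 and keeps the remaining 14. None of the 10 reached 24.3 bits, the score passed by 0.1% of flank windows. In bins of 2 bits, the 1202 other start-site peaks numbered 9 from 24 bits, 4 from 26 and 1 from 28. They included weaker peaks, such as those at CG17597 (signal 2697, 24.4 bits) and Col4a1 (202.9, 27.8 bits). With 10 genes, 0 is not distinct from so small a share.

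**Figure D1:**
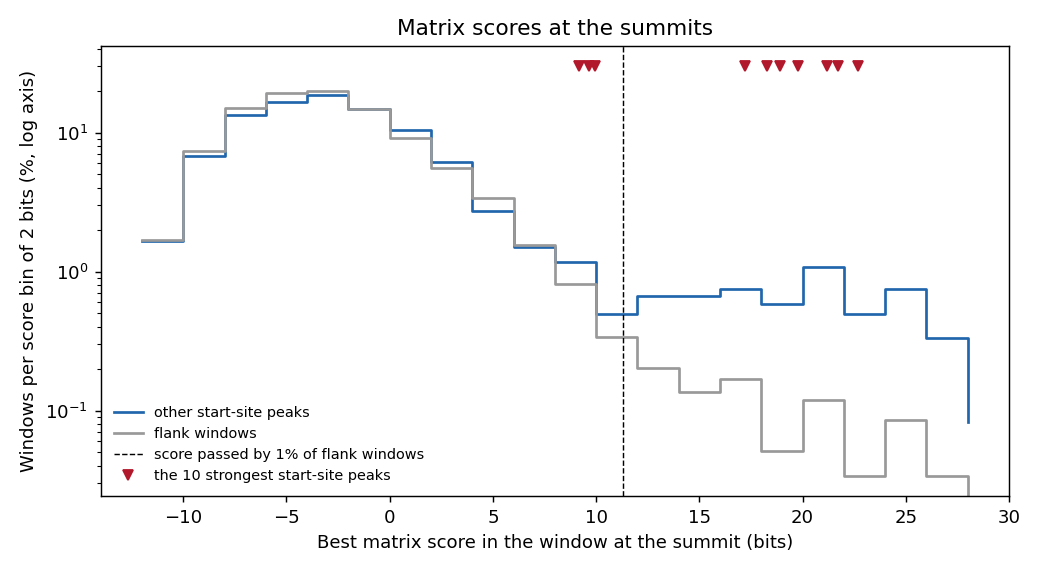
Best matrix score in bits within 50 bp either side of each summit: triangles are the 10 genes' peaks, the blue line is the share of other start-site peaks and the grey line the share of flank windows in bins of 2 bits (log axis). The scores of 7 of the 10 lie at 17.2 or above, to the right of the dashed threshold of 11.3, and 3 lie between 9.15 and 9.95.

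The word itself was present in 5 of the 10 summit windows, at CG8861, shps, CG31915, Tsen15 and Camta, against 2.16% of the other start-site peaks. Matches to the sequence were not particular to these genes. The next 50 start-site peaks by signal, between 646 and 3304, held a match in 58%, and 13 of the other 15 peaks in the leading 25 held one. Those peaks helped to train the matrix and the 10 genes did not. With a matrix trained only on peaks away from start sites, an alternative chosen after seeing the data, 8 of the 10 passed, with Dolk added, against 5.57% of other start-site peaks and 56% of the next 50. Among other start-site peaks that were not used for training, all with a signal of at most 235.1, the share was 2.61%.

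Over whole regions, 9 of the 10 held at least 1 match, all but CG8675, against 7.49% of the other start-site regions. The 10 regions are wide (median 779.5 bp, against 384 bp), so each offers more positions for a match. Such width was shared by the other 15 peaks of the leading 25, with a median of 706 bp. Dolk's match, at 17.5 bits, had its centre 51 bp from the summit and so was not wholly inside the summit window. CG8861 had its match 356 bp from the summit, on the side of its own start:
CG8861, chr3R:9328637-9328655, minus strand: aACAGTTTGAGtagCACTG

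That site scored 19.4 bits, above the 9.15 of the site at the summit. More than 1 match was present in 4 regions, against 0.925% of other start-site regions, and in each of the 4 both matches pointed the same way. The matches began 16 bp apart at Camta, 26 bp at CG31915, 48 bp at Tsen15 and 257 bp at Rnb. The second sites of CG31915 (19.6 bits) and Rnb (14.6 bits) read as follows.
CG31915, chr2L:5528079-5528097, plus strand: TgCAGTTTGAGcGgCACTc
Rnb, chr3R:29799320-29799338, minus strand: agagGTTTGAGAcgCACTG

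At CG31915 the pair straddled the summit, with match centres 8 and 18 bp away. At Rnb each match lay beside a summit of its own, 41 bp from the main summit and 14 bp from the extra one. At Camta the first match covered the start site itself. The strand of the best match equalled that of the gene at 4 of the 7 genes whose summit window passed, so it had no single orientation to the gene.

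**Figure D2:**
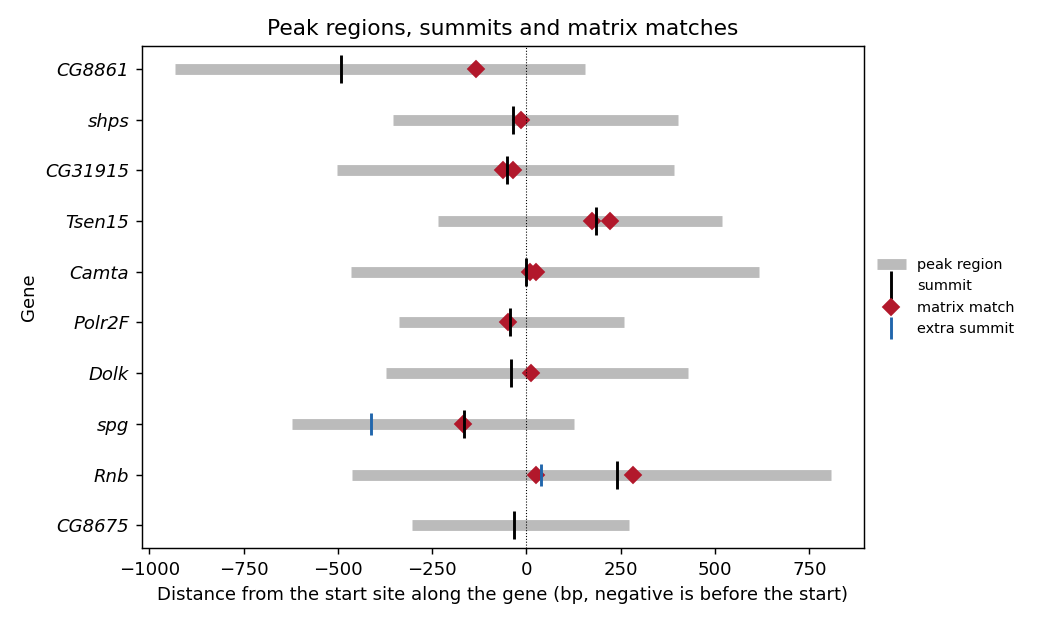
Peak regions (grey bars), main summits (black ticks), extra summits (blue ticks) and matrix matches (red diamonds) by distance in bp from each gene's start site, with negative values before the start. Of the 13 matches in these regions, 11 lie within 60 bp of the main summit; the exceptions are at CG8861 and, beside its extra summit, at Rnb.

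Polr2F, Tsen15 and Dolk encode parts of general machinery. Polr2F is a subunit shared by RNA polymerases I, II and III. Its gene, FBgn0003275, runs from 5371795 to 5372397 on the plus strand of 3R, and its peak (5371456 to 5372054, 599 bp wide) had a signal of 4961, rank 15 in the IDR set. The replicate signals were 2476 in replicate 1 and 2529 in replicate 3, with summits 4 bp apart. The summit lay 45 bp before the start, in the narrow gap behind CG31542, which ends 50 bp upstream on the same strand.

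Tsen15 is a subunit of the endonuclease that cuts introns out of tRNA precursors. This gene, FBgn0050343, is at 9252021 to 9253255 on the plus strand of 2R. The peak (9251785 to 9252540, 756 bp) had a signal of 5091, rank 12, with 2129 in replicate 1 and 3010 in replicate 3. Unlike most of the 10, its summit was after the start, 185 bp into the gene and in a coding exon. Pkn, a gene on the minus strand, overlaps most of Tsen15 beyond the summit.

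Dolk, dolichol kinase, makes the phosphorylated lipid on which the sugar chains of glycoproteins are assembled. The gene (FBgn0034141) spans 16587045 to 16589184 on the minus strand of 2R, and its peak (16588755 to 16589556, 802 bp) had a signal of 4339, rank 16. The summit was 40 bp before the start. The replicate values, 1767 in replicate 1 and 2607 in replicate 3, were the furthest apart of the 10, with a log2 difference of 0.561. RpLP2, a ribosomal protein gene, ends 312 bp beyond the end of Dolk, and CG8306 ends 333 bp upstream of its start.

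Camta and spg encode regulators of signalling. Camta, a calmodulin-binding transcription activator, is a gene of 34031 bp at 9446046 to 9480076 on the plus strand of 2R (FBgn0287478) with 3 annotated start sites. The summit was 1 bp before the first of them. The peak (9445580 to 9446664) was 1085 bp wide with a signal of 5012, rank 13, and the replicates gave 2051 in replicate 1 and 3010 in replicate 3. The other start sites of Camta had no IDR peak: the nearest regions of the pooled list, 4 bp and 603 bp away, had signals of 35.25 and 35.82. The replicate 3 region alone carried a further summit, 213 bp from the IDR summit, at a signal of 126.

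The gene spg, sponge, encodes an exchange factor of the DOCK family, which activates small GTPases. It runs from 28845270 to 28870439 on the plus strand of 3R (FBgn0264324). Its peak (28844647 to 28845395, 749 bp) had a signal of 4006, rank 19, with 2012 in replicate 1 and 2022 in replicate 3. The summit lay 166 bp before the start and its sequence had the lowest GC content of the 10, at 34.7%. An extra summit of signal 202.9, rank 772, lay 246 bp further from the gene in the IDR and pooled lists, and in neither replicate's own region. This extra summit was 412 bp from the start of spg and 110 bp from that of Apc, its nearest coding start. Its window had no match, with a best score of -1.41 bits.

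For the other 5 genes the annotation used here gives no function. CG8861 had the highest signal of the 10, 7101, rank 2 of the 2962 IDR peaks, and the values of its replicates were nearly equal, 3582 in replicate 1 and 3584 in replicate 3. Both replicates placed the summit on the same base. The gene (FBgn0037676) is 34870 bp long on the minus strand of 3R, at 9293642 to 9328511, and the summit was 491 bp before its start, the furthest of the 10 and near the 500 bp limit. The peak (9328357 to 9329444, 1088 bp) spans the start of CG8861 and reaches into the end of CG12951.

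The gene shps, named sheepish, is at 24279572 to 24281576 on the plus strand of 3R (FBgn0286199). Its peak (24279218 to 24279974, 757 bp) had a signal of 6749, rank 4, with 3238 in replicate 1 and 3556 in replicate 3. The summit was 35 bp before the start and 3 bp apart in the replicates, and the matrix match lay between the summit and the start. CG31915 (FBgn0051915) lies at 5528123 to 5530682 on the plus strand of 2L, within the span of the gene Cap-D3, so that its promoter is in an intron of Cap-D3. The peak there (5527621 to 5528514, 894 bp) had a signal of 5131, rank 11, with 2196 in replicate 1 and 2987 in replicate 3.

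Rnb, named R and B, is at 29795697 to 29799354 on the minus strand of 3R (FBgn0039696). It had the widest region of the 10, 1273 bp (29798546 to 29799818), and the only one with a pair of strong summits. The main summit had a signal of 3878, rank 21, and lay 241 bp into the gene in a coding exon. The extra one, 202 bp away and 39 bp from the start, had 3181, rank 29. Replicate 1 separated the pair, at 1937 and 1457, whereas replicate 3 had a single summit of 2010 that lay 26 bp from the main IDR summit and between the pair. That is the largest gap between the replicates' summits among the 10, at 28 bp.

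CG8675 closes the set with the lowest signal, 3369, rank 25. It lies at 17248372 to 17249502 on the minus strand of X (FBgn0030834), inside an intron of the gene f, forked. The peak (17249229 to 17249806) was the narrowest, 578 bp, with its summit 34 bp before the start. Here alone replicate 1 was higher, with 1765 in replicate 1 and 1636 in replicate 3. The next start-site peaks below it were at CG17544 (3304, rank 26), CG14135 (3186), Task6 (2936), CG15025 (2834) and CG17597 (2697). Of the leading 25, the peaks just beyond 500 bp from a start were those near lectin-28C (5994, 501 bp), CG32196 (5158, 524 bp) and CG7120 (4999, 858 bp), so the limit on distance left out peaks as strong as those kept.

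**Figure D3:**
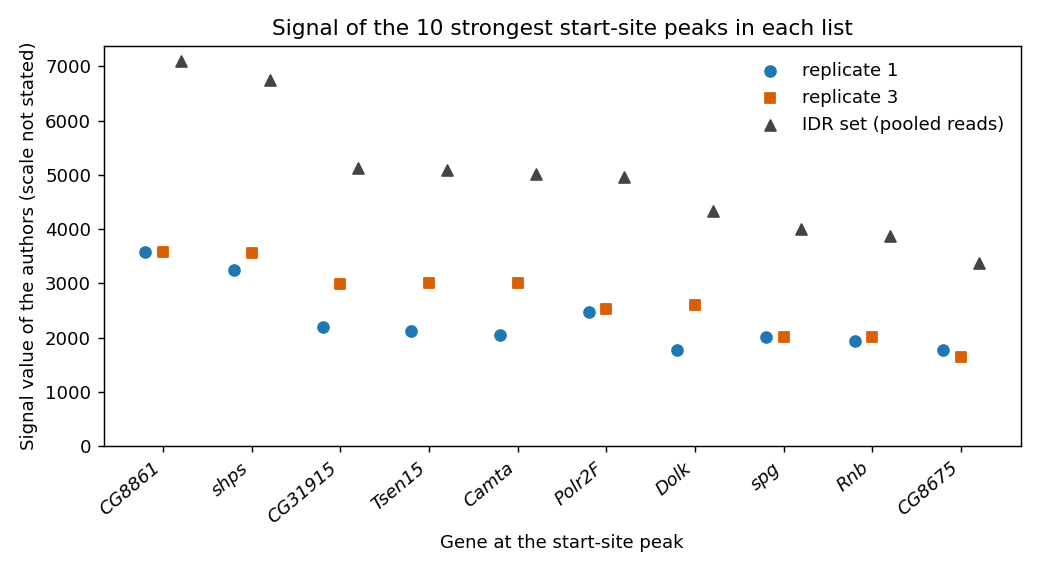
Signal value as deposited (scale not stated) of the peak at each gene, in replicate 1 (circles), replicate 3 (squares) and the IDR set (triangles), with genes in order of IDR signal. Replicate 3 lies above replicate 1 at 9 of the 10, with the widest gaps at CG31915, Tsen15, Camta and Dolk.

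Both replicates placed these peaks near the top of their own lists, which the choice by the pooled signal makes likely. All 10 were among the 25 highest regions of replicate 1 (ranks 2 to 21) and 9 among those of replicate 3 (ranks 4 to 29, with CG8675 at 29). In both replicates at once, this held for 9 of the 10 and for 0% of other start-site peaks. Those others all ranked below the leading 25 by IDR signal, so the 0% largely follows from the choice and is no comparison. Others did enter in a single replicate: CG17544 was at rank 24 in replicate 1 and CG14135 at rank 24 in replicate 3. The IDR signal was 0.983 to 0.993 of the sum of the replicate signals. Replicate 3 was higher at 9 of the 10 genes, as it was at 87% of the other start-site peaks, so that direction was shared with other peaks. The median log2 difference, replicate 3 over replicate 1, was 0.094 for the 10 and 0.59 for the others. Small differences were not particular to the 10. At the next start-site peaks, replicates 1 and 3 gave 1638 and 1687 (CG17544), 1551 and 1394 (Task6), 1341 and 1526 (CG15025). They gave 1299 and 1412 at CG17597, and were further apart at CG14135 (1239 and 1987). Replicate 3 regions were wider at all 10, by 1.19 to 1.56 times, and at 83% of the others, whose median ratio was 1.06. The others' lower and upper quartiles were 1.06 too, and the median widths of the lists are 404 bp in replicate 3 and 380 bp in replicate 1. Their 83% thus largely follows a width common in each list and is not comparable with the 10. Across the 10 peaks, Pearson's r of the log2 signals was 0.735 and Spearman's rho of the signals 0.778, over peaks that share libraries and were chosen by signal.

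The reciprocal overlap with each replicate's 2962 top-ranked regions was at least 50% in both replicates for all 10, against 52.6% of other start-site regions. Replicate summits were 0 to 28 bp apart, with a median of 4 bp, against a median of 25 bp for 1079 other start-site peaks found in both replicates. Both measures rest on the same reads as the signal that chose the genes.

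Position relative to the start varied. The summit was before the start at 8 of the 10, against 83.8% of the others, and after it at Tsen15 and Rnb. It was within 100 bp of the start at 6 of the 10, namely shps, CG31915, Camta, Polr2F, Dolk and CG8675, against 29.9%. The median distance was 49 bp, against 160.5 bp. GC content in the summit window had a median of 45.55% in the 10 (34.7 to 50.5%), against 32.67%, and 9 of the 10 were above the other peaks' upper quartile of 39.6%. More than 1 summit was listed for 2 of the 10 regions, at Rnb and spg, against 1.01% of others. Wider regions leave more room for extra summits, and the other 15 peaks of the leading 25 had a median width of 706 bp. The others with extra summits include strong peaks, such as that at Polr2K (1148).

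Coding starts of more than 1 gene lay within 500 bp of the highest summit at 1 of the 10, spg, against 34.6% of other start-site regions. At spg the second gene is Apc, on the opposite strand, whose start was 356 bp from the summit and 522 bp from that of spg. With genes of any kind counted, Camta joined through lncRNA:CR45321, which starts 261 bp from the summit on the opposite strand, giving 2 of the 10 against 38.8%. Coding starts on both strands were within reach at 1 of the 10, against 32.6%. At Rnb the caspase gene Drice starts on the opposite strand 304 bp from the start of Rnb and 545 bp from the main summit, but 343 bp from the extra summit and within the peak region. Counted from any summit of a region, an alternative chosen after seeing the data, 2 of the 10 shared a promoter, spg and Rnb, against 34.7%, and both had coding starts on both strands, against 32.7%.

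Other regions lay around these peaks. Within 5 kb of the 10 genes the IDR set held 21 summits in 19 regions, of which 9 regions were further ones. The pooled list held 89 regions (79 further), replicate 1 80 (70 further) and replicate 3 82 (72 further), with no count over other genes made for these lists. A further IDR region was present for 6 of the 10, against 43.4% of other genes with a bound start, and 33.3% of all protein-coding genes had any IDR region that near. The further IDR peaks had signals of 91.31 to 366.2, with 4 of the 9 above the IDR set's median of 129. By the choice of the genes the main peaks were higher: each exceeded its strongest further pooled region, by 11.8 times at Dolk and up to 150 times at CG8861.

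Most of those further peaks sat at other genes' starts: 7 of the 9 were within 500 bp of another coding start, against 41% of all IDR peaks. The strongest, at 366.2, was 480 bp from the start of RpLP2 beyond the end of Dolk. It had 295 in replicate 3 and 66.78 in the nearest region of replicate 1, where a further overlapping region had 49.12. A second one near Dolk, at 115, matched no region of replicate 1 and had 102.7 in replicate 3. The replicates thus differed more at these than at the Dolk start. Upstream of Camta lay 3 further peaks, at 138.6, 135.8 and 105.6, the first 192 bp, the second 1391 bp and the last 465 bp from the start of ced-6. The others were at Orct near shps (184.6, 106 bp from its start), Cerk near Polr2F (114.4, 96 bp), Elp4 near CG31915 (99.29, 57 bp) and Etfb near Rnb (91.31, 40 bp). CG8861, Tsen15, spg and CG8675 had none.

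**Figure D4:**
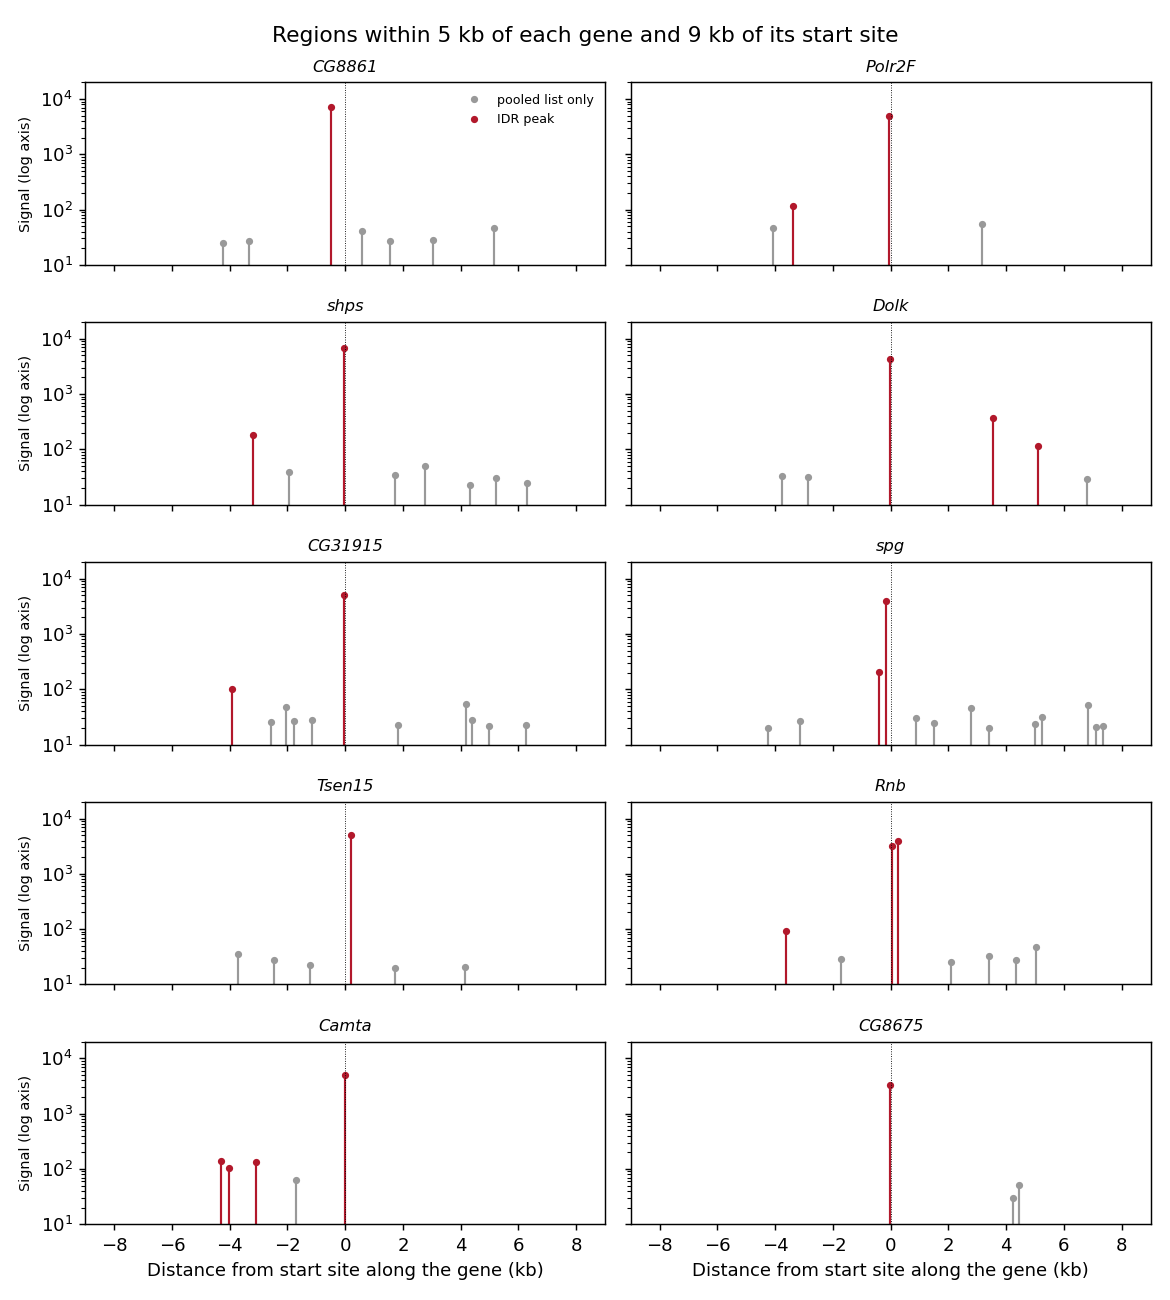
Signal (log axis) of IDR peaks (red) and of pooled regions outside the IDR set (grey, labelled pooled list only) within 5 kb of each gene. The horizontal axis is distance in kb from the start site along the gene, shown up to 9 kb either side. Each main start-site peak stands at 3369 or above, the further IDR peaks lie between 91.31 and 366.2 and the plotted grey regions between 19.85 and 62.98. Regions deep inside Camta, CG8861 and spg fall beyond the plotted span.

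The 70 further pooled regions outside the IDR set had signals of 19.8 to 66.4, and 78 of the 79 further pooled regions were 384 bp wide, the median width of that list. Of the 79, 75 overlapped a region of at least 1 replicate and 28 overlapped both. The same shares over the whole pooled list were not computed, so these counts cannot be read as high or low. No summit window of the 9 further IDR peaks had a matrix match (best score 1.88 bits), and over whole regions 1 of the 9 had one, upstream of Camta. The shares over all IDR peaks other than the 10 genes' were 10.7% for summit windows (5.18% outside training) and 12.4% for whole regions, so 0 and 1 of 9 are near the background.

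The matrix matched 22 places within 5 kb of the 10 genes. Of these, 13 were in the main regions, scoring 14.6 to 22.7 bits, and 9 were elsewhere, scoring 11.4 to 16.7. None of those 9 lay within 100 bp of an IDR or pooled summit, a limit chosen after seeing the data, but the match upstream of Camta, at 11.9 bits, was just past that limit from the summit of the further IDR region of signal 105.6 and lay inside that region. The highest, at 16.7 bits, was inside CG8861, 9848 bp from the main summit. Across the genome the share of matches within 100 bp of an IDR summit was 1.75% for scores of 11.3 to 14, 6.95% for 14 to 17, 31.3% for 17 to 20, 65.5% for 20 to 23 and 93% from 23. With matches near training summits left out these shares were 0.767%, 2.77%, 17.3%, 45.9% and 80%. The 7 passing summits fell in the middle of this range, 4 of them in 17 to 20 and 3 in 20 to 23, so the sites at some of the strongest start-site peaks were of intermediate score.

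**Figure D5:**
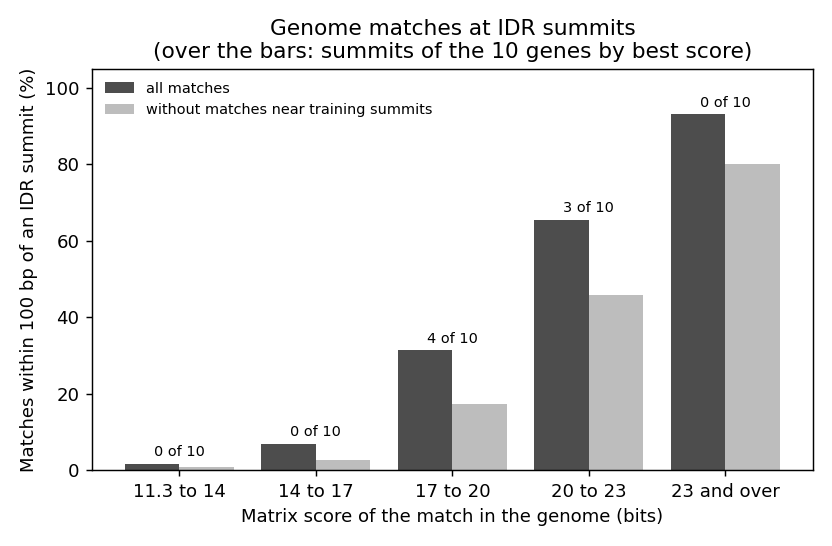
Share of matrix matches in the genome that lie within 100 bp of an IDR summit, by score in bits, for all matches (dark bars) and without matches near training summits (light bars). Numbers over the bars count the 10 genes' summits by best score, with 4 in the class 17 to 20 and 3 in the class 20 to 23; the other 3 are below 11.3.

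Other promoter sequences were searched within 150 bp either side of the summit, on both strands. TATCGATA, the DNA replication-related element, was in 0 of the 10 windows, against 6.22% of other start-site regions and 9.36% of windows from 250 bp before to 50 bp after each coding start. GAGAGA was in 1, at shps, against 17.1% and 12.3%. TATAAA was in 2, at CG8861 and Polr2F, against 49.3% and 45.9%. The leading word was in 5, against 3.36% and 1.52%, and a matrix match in 8, against 6.9% and 1.27%. With 10 windows these counts are loosely set, and a missing word says only that these letters are not in the window. Summit windows of the 10 were also richer in GC (median 45.55%, against 32.67%), and the counts were not adjusted for base composition.

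Genes that work with these 10 were counted as bound when an IDR summit was within 500 bp of a start, which held for 10.9% of all protein-coding genes. Of the 11 other RNA polymerase II subunits, 4 were bound: Polr2K at 1148, Polr2H at 193.9, Polr2J at 145.9 and Polr2B at 129, each far below the 4961 of Polr2F. Several of these peaks were nearer to another gene's start. The Polr2H peak was 0 bp from CG11247 (126 bp from Polr2H) and the Polr2J peak 78 bp from CG15141 (157 bp from Polr2J). The Polr2B peak was 63 bp from 140up (180 bp from Polr2B). Among 16 other genes of dolichol-linked glycan synthesis, only Alg3, a mannosyltransferase of that pathway, was bound, at 457.8, against 4339 at Dolk. None of the 6 other tRNA splicing genes was bound, nor any of the 8 other calmodulin signalling genes. Of the 4 other DOCK and ELMO genes, mbc was bound at 92.26, in the top-ranked regions of replicate 1 and not in those of replicate 3, lists in which 9.19% and 11.5% of all protein-coding genes had a bound start. The peak counted for mbc was nearer to the start of Nup98-96, at 39 bp, than to that of mbc, at 183 bp. A list of collagen genes and their modifiers, on which CG31915 had been placed, had Col4a1 as its only other bound gene of 5, at 202.9.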

How the data were processed

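Binding of CG6654-eGFP was measured by ChIP-seq in 2 replicates of 0 to 12 h embryos, from chromatin sonicated to a size range of 200 to 800 per the labels. The authors deposited narrowPeak lists, per the labels called on each replicate and on the pooled reads (30000 regions each, 1 per summit) and passed through IDR (2962 summits in 2931 regions). Which aligner, peak caller and IDR cutoff were used is not given in the sources used here. The authors deposited for each region a signal score of unstated scale, used only to describe and rank regions within a list, a −log10 q-value, which is the same for all 10 peaks and was not used further, and the summit's offset from the region start. The lists hold no read totals, so depth is unknown, and a control named in the labels was not analysed here. No intervals were computed, and nothing was tested, because the genes were chosen by their signal in 1 group. The members, gene lists and searches were chosen with earlier results of these data known.

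Genes came from Ensembl release 115 (BDGP6) and sequence from the RefSeq Release 6 genome, both in dm6 coordinates counted from 1; lists on dm3 were not used. For a start-site peak, the summit and a protein-coding start are at most 500 bp apart. Distances within 5000 bp run from the gene's ends. Peaks of the members were compared with 1202 other start-site summits in 1189 regions. The word was chosen from 2950 IDR peaks outside the members' regions, in windows of 50 bp either side of summits against flanks 200 to 300 bp away. From 93 word sites, the matrix was refined on the 600 highest of those peaks, with a pseudocount of 1, up to 20 iterations and columns of at least 0.2 bits kept, and it ended on 186 sites. Starting widths of 11, 18 and 22 columns either side of the word were tried beside 14. The nearness limits of matches, score classes, promoter letters and matrix settings were chosen after seeing the data. Top-ranked regions are each replicate's 2962 highest. Word counting and matrix training were tested on simulated data. Named genes are the members, the nearest genes, genes with starts within 1000 bp of a member's summit or 500 bp of a further IDR peak, the 5 next start-site genes and bound list genes; lectin-28C, CG32196, CG7120, HP1e and genes overlapping a member were named after their values were seen. Of 20 dolichol names, 17 distinct genes were found. Python 3.11.15, numpy 2.4.6, pandas 2.3.3 and matplotlib 3.10.9 were used. Alternatives were the distances, windows, thresholds, overlap and leaving out each replicate.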

Additional observations from a re-analysis of the deposited data

How the results depend on the processing

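Of 62 recounts under other settings, 51 stayed within 1.5 times the reported count and 11 moved beyond it. IDR regions near the genes numbered 11 within 2000 bp, against 19 within 5 kb. Genes with a further IDR region fell to 1 within 2000 bp and to 3 with the upper 50% of IDR peaks, against 6. Summits with the starts of more than 1 coding gene numbered 0 within 250 bp and 2 within 1000 bp, 2 with all annotated genes counted and 2 from any summit of a region, against 1. No summit passed the matrix threshold reached by 0.1% of flank windows (0, against 7), whereas 6 passed at replicate 3 summits (without replicate 1) and 7 at replicate 1 summits. Over the 4 matrix alternatives chosen after seeing the data, 7 to 8 passed. Bound DOCK and ELMO genes numbered 1 with the upper 50% of IDR peaks, against 2, and 1 to 2 when either replicate was left out; the collagen list had 1 at 250 bp, against 2. The cause of these moves was not tested beyond the changed distance, threshold or counting itself. The share of other start-site peaks was not recounted for every setting. At the stricter matrix threshold the contrast with those peaks did not hold: 0 of the 10 passed, but others such as Col4a1 (27.8 bits) did. No paired analysis was possible because there is only 1 group. Read depth is unknown, signal scales are not stated, and with 10 chosen genes a difference of 1 or 2 genes cannot be read as more than a description.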

Other observations

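The strongest region outside the IDR set near these genes was in the pooled list inside spg, with a signal of 66.38 and 1766 bp from the start of Inx3, an innexin gene nested in spg. CG8861, the gene with the strongest start-site peak, had 17 further pooled regions within 5 kb, 14 of them inside the gene and 3 outside it, and 0 further IDR regions, and the highest of them, at 47.22, was 1570 bp from the start of HP1e, a heterochromatin protein gene nested in it. Its window was the longest of the 10, at 44870 bp. Per 10 kb it held 3.79 further pooled regions, within the range of 1.8 at CG8675 to 7.96 at CG31915. A pair of pooled regions downstream of CG8675, at 50.89 and 30.02, lay 48 and 256 bp from the start of CG8915. Of the 9 matrix matches outside the main regions, 1 lay within 100 bp of a summit in replicate 1's list, beyond the end of Dolk (11.4 bits, 6 bp), and 1 within 100 bp of a summit in replicate 3's list, upstream of Camta (11.9 bits, 96 bp).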
